A study of Homo sapiens with 12 samples.

Results

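The comparison described here is the difference between cells without the catalytic domain of TET1 and control cells, averaged over 2 stages of culture. All 12 libraries of the series entered it, 6 a side, and every gene was fitted with a term for the stage and a term for the genotype. Each value is therefore an average of the CDKO over CTRL difference over both stages, whether or not the stages are alike, and 20262 genes were measured well enough to be tested. The cells were of UCLA1, a human embryonic stem cell (hESC) line. Per the labels, 3 control lines (CTRL1101, CTRL1106 and CTRL1109) and 3 lines with a TET1 catalytic domain knockout (CDKO1102, CDKO1105 and CDKO1312) were sampled as hESC and again as incipient mesoderm-like cells (iMeLC), which gave 4 groups of 3 libraries. An iMeLC is a short-lived state that hESC are brought to on the way to primordial germ cell-like cells. The labels do not say whether each line is a single clone. The RNA came from sorted cells or cell pellets and was sequenced in bulk, so fewer cells of a type and less RNA per cell cannot be told apart.

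TET1 oxidises 5-methylcytosine in DNA to 5-hydroxymethylcytosine, the first step by which the methyl mark can be taken off. Its catalytic domain does this chemistry, while another part of the protein binds DNA rich in CG pairs, so a protein without the catalytic domain may still bind. Pluripotent cells and germ cells hold much TET1. DNA methylation at a promoter is, in general, linked to low transcription, and imprinted genes and germ cell genes are known for relying on it.

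The hESC libraries held between 12517593 and 18855099 counts each and the iMeLC libraries between 52121702 and 109479071, so low levels carry more counting error in hESC. Levels are given as CPM, the count scaled to library size and composition. Stage coincided with the table and with depth, and the averaging takes that difference up in the stage term. The hESC columns carry a replicate number and no line, so which hESC library belongs to which line is not known, and the 12 libraries, drawn from 6 lines, were treated as independent. The p-values rest on the spread among libraries and may be too small. The stage labels were checked against marker genes. POU5F1, a core pluripotency factor, lay between 1292 and 1615 CPM in hESC and between 926 and 1103 CPM in iMeLC, and TBXT, a primitive streak factor, between 0.354 and 5.33 CPM in hESC and between 11.6 and 112 CPM in iMeLC. SOX2 and LIN28A did not overlap between the stages either. The primitive streak markers EOMES, MIXL1 and GSC and the pluripotency factor NANOG did overlap. EOMES, for example, reached 36.5 CPM in hESC and went down to 16.4 CPM in iMeLC. Fibroblast markers were present in part: COL1A1 lay between 110 and 184 CPM in hESC and between 194 and 593 CPM in iMeLC, while the stromal marker LUM was at 0 in at least 1 hESC library and reached 3.81 CPM at most. All pairs of replicate libraries differed by more than sampling noise, which alone gives a chi-square of about 1 per gene: pairs lay between 3.01 and 11.9 in hESC, 15.6 and 23.5 in CDKO iMeLC and 79.1 and 145 in CTRL iMeLC. The chi-square grows with depth, which differs between the groups, so these values do not rank the groups by their spread.

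TET1 transcript was present in every library. In hESC its level was 290, 339 and 304 CPM in CTRL 1 to 3 and 375, 396 and 335 CPM in CDKO 1 to 3. In iMeLC it was 288, 322 and 293 CPM in CTRL1101, CTRL1106 and CTRL1109 and 325, 356 and 304 CPM in CDKO1102, CDKO1105 and CDKO1312. The genotypes overlapped at each stage. The mean log2 level differed by 0.18, with an exact two-sided permutation p of 0.025 over 400 arrangements within the stages, where the smallest possible is 0.005. Those arrangements treat the hESC and iMeLC libraries as independent although both stages come from the same 6 lines, and the p of 0.025 depends on that. In the fit over all genes the TET1 log2 fold change was 0.18 (SE 0.07, adjusted p = 0.114 by edgeR's quasi-likelihood test), which missed the threshold of 0.05. The counts cover the whole gene, so a deleted stretch inside it is not visible in them, and they do not check the knockout. TET2, at 0.37 (SE 0.12, adjusted p = 0.0879), and TET3, at 0.17 (SE 0.07, adjusted p = 0.139), did not pass either. For TET2 the genotypes overlapped in iMeLC and not in hESC, and it passed in 3 of 23 alternatives.

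Averaged over both stages, 982 of 20262 genes (4.85%) were called at an adjusted p under 0.05. Of these, 452 (2.23% of genes tested) were higher in CDKO and 530 (2.62%) were lower. The rises were smaller than the falls: the median log2 fold change was 0.63 for genes called higher and -0.86 for genes called lower, against -0.01 for all genes tested. Beyond 3 on the log2 scale there were 8 rises and 51 falls, beyond 2 there were 40 and 98, and under 1 there were 308 and 298. The hESC libraries alone gave 226 calls (1.31% of 17222 genes) and the iMeLC libraries alone 69 (0.345% of 19999 genes). The count rested on the libraries. It fell to 363 without CDKO1102 iMeLC, 400 without CDKO1105 iMeLC, 448 without CTRL hESC 3, 533 without CDKO1312 iMeLC, 561 without CDKO hESC 1 and 572 without CDKO hESC 2, and it was 2182 without CTRL1101 iMeLC. In each of the 12 fits that leave out 1 library, 298 genes were called, 106 higher and 192 lower; they include ZNF729, HEPH and NLRP2, whose genotypes overlap. Leaving out both CDKO hESC 1 and CDKO1102 iMeLC, an omission chosen after seeing the data, left 125 calls in all. Falls outnumbered rises with edgeR, but limma with library weights gave 704 rises and 592 falls.

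**Figure D1:**
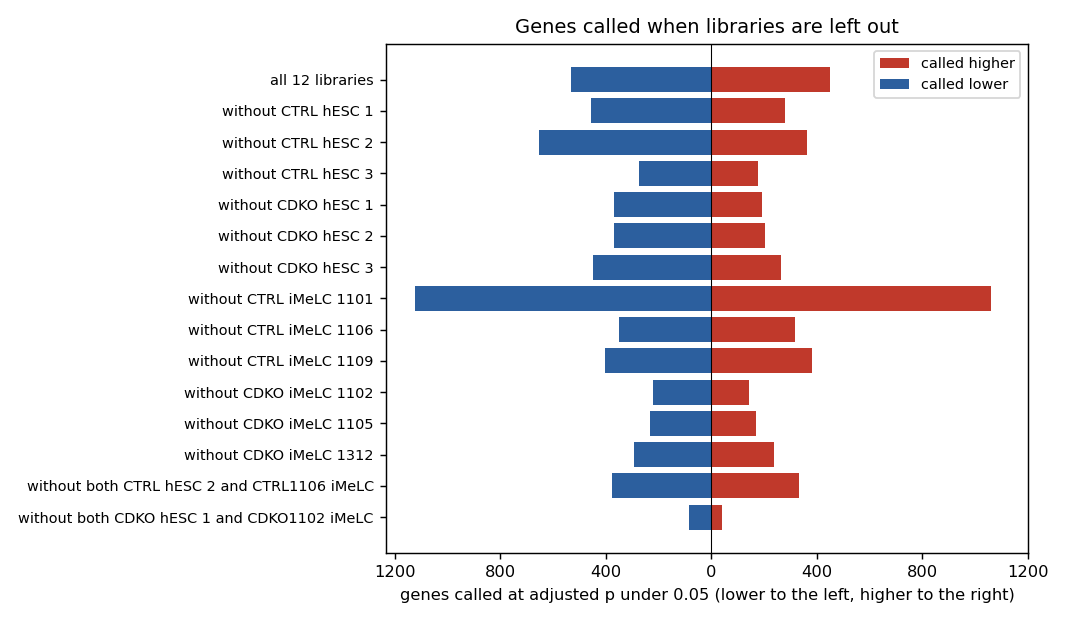
Number of genes called at adjusted p under 0.05 (x axis; lower in CDKO to the left in blue, higher to the right in red) with all 12 libraries, with each library left out in turn, and with 2 pairs of libraries left out. The bars are longest without CTRL1101 iMeLC (2182 genes) and, among single omissions, shortest without CDKO1102 iMeLC (363 genes).

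Among the 982 called genes, 660 (296 higher and 364 lower) had no overlap between CTRL and CDKO libraries in hESC and none in iMeLC. Over all genes tested this was so for 1072 (5.29%), 496 with CDKO above CTRL (2.45%) and 576 with CDKO below (2.84%). For a further 309 called genes the genotypes stood apart at 1 stage only, and for 13 they overlapped at both. No called gene had fitted differences of opposite sign at the stages, which the averaged test itself favours. The falls were larger in iMeLC for 419 of 530 genes, with a median log2 fold change of -1.03 in iMeLC and -0.68 in hESC. The rises were larger in iMeLC for 313 of 452 genes, with medians of 0.68 and 0.52. The test of the difference between the stages called 4 genes of 20262 (0.0197%), while 2275 had an unadjusted p under 0.05 and DESeq2 called 210. Of the 4, PKP3 was also among the averaged calls, and MTRNR2L12, TRIM4 and ABCA1 were not.

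**Figure D2:**
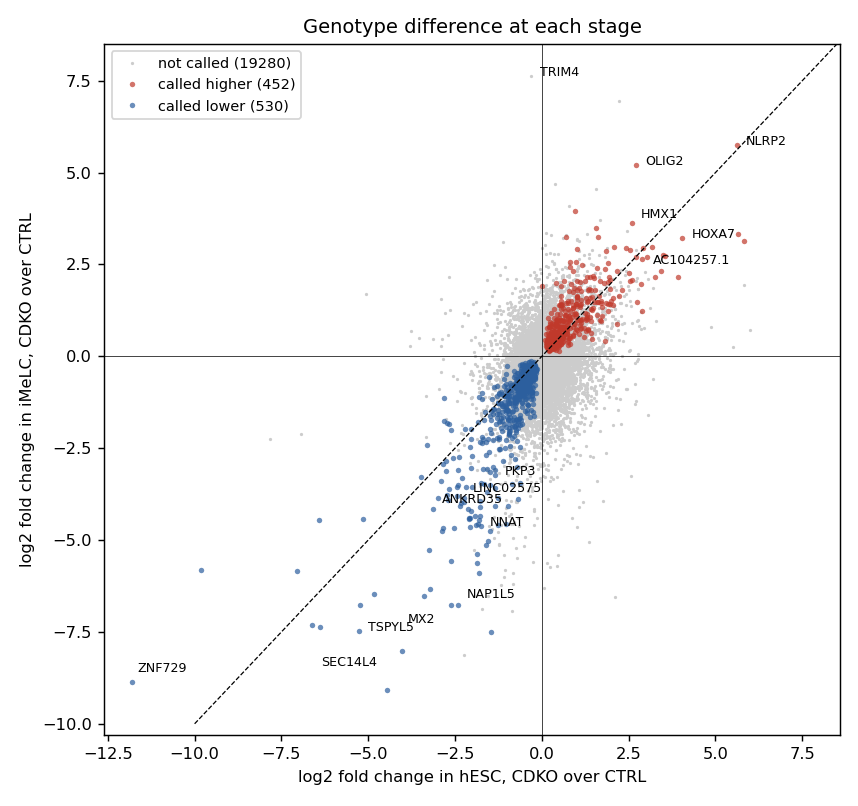
Log2 fold change of CDKO over CTRL in hESC (x axis) and in iMeLC (y axis) for each gene tested, from a fit with 4 group means; grey points are not called in the averaged comparison, red points are called higher (452) and blue points lower (530). Called falls lie mostly under the dashed line of equal change, since 419 of 530 were larger in iMeLC.

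The deepest falls left genes near zero in the knockout lines. TSPYL5, a member of the testis-specific Y-encoded-like protein family, read 12.5, 22.6 and 16.4 CPM in CTRL hESC and 0.433, 0.778 and 0.102 CPM in CDKO hESC. In iMeLC it read 7.67, 18.3 and 8.37 CPM in the controls and 0, 0.105 and 0.0579 CPM in CDKO. Every CTRL library stood above every CDKO library, and the averaged log2 fold change was -6.31 (SE 0.51, adjusted p = 4.82e-05). SEC14L4, which codes for a SEC14-like lipid-binding protein, read 2.64, 3.94 and 3.53 CPM against 0.289, 0.243 and 0.102 CPM in hESC and 1.81, 2.61 and 1.69 CPM against 0, 0.0132 and 0 CPM in iMeLC. The CDKO iMeLC libraries held 1 SEC14L4 count in all, so its fitted log2 fold change, -5.40 (SE 0.55, adjusted p = 0.000279) depends in part on the prior count of the fit. The same holds for CYTL1, a secreted cytokine-like protein, with 4 counts against 525 in iMeLC (log2 fold change -5.10), for SMIM10, a small membrane protein, with 2 against 662 (-3.49), and for the antisense RNA MIR1-1HG-AS1, with 0 against 59 (-5.25). SMIM10 lost its call in 5 of 12 omissions, those of CDKO hESC 1, CDKO hESC 3 and each CDKO iMeLC library.

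ANKRD35, an ankyrin repeat gene, had the smallest adjusted p among the falls. Its level was 14.2, 20.5 and 14.9 CPM in CTRL hESC, 2.60, 1.70 and 1.43 CPM in CDKO hESC, 3.16, 6.90 and 4.64 CPM in CTRL iMeLC and 0.356, 0.237 and 0.246 CPM in CDKO iMeLC. The genotypes did not overlap, and the log2 fold change was -3.60 (SE 0.27, adjusted p = 2.84e-05, between -4.17 and -3.13 over 23 alternatives). ZFP3, a zinc finger gene, fell by the same amount (-3.60, SE 0.44, adjusted p = 0.000992), from 3.19, 6.32 and 6.38 to 0.578, 1.70 and 0.410 CPM in hESC and from 4.99, 5.36 and 4.97 to 0.223, 0.197 and 0.174 CPM in iMeLC. PINLYP, which codes for a phospholipase inhibitor with a LY6 domain, fell less far and with a narrow spread: 4.56, 4.35 and 3.72 against 1.44, 1.51 and 1.64 CPM in hESC and 2.04, 2.08 and 2.22 against 0.623, 0.619 and 0.666 CPM in iMeLC. Its log2 fold change was -1.60 (SE 0.15, adjusted p = 0.000181). IQCA1, an ATPase-domain gene, fell by 1.25 (SE 0.13, adjusted p = 0.000307) on the log2 scale. The non-coding LINC01162 (-3.86), UPK1A-AS1 (-3.46) and the small membrane protein gene SMIM24 (-3.42) were also among the 14 largest falls without overlap. UPK1A-AS1 lies opposite UPK1A, and it lost its call without CDKO1105 iMeLC.

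The clearest rise was that of AC104257.1, a long non-coding RNA of no described function here. It read 7.36, 13.5 and 13.8 CPM in CTRL hESC and 91.1, 88.7 and 84.7 CPM in CDKO hESC. In iMeLC it read 14.4, 22.8 and 17.3 CPM in the controls and 173, 146 and 105 CPM in CDKO. The lowest CDKO library lay well above the highest CTRL library at each stage, and the log2 fold change was 2.94 (SE 0.17, adjusted p = 1.25e-06), the smallest adjusted p of all genes. B4GALNT1, the synthase of the gangliosides GM2 and GD2, read 1.70, 1.31 and 1.88 against 7.51, 5.93 and 5.89 CPM in hESC and 1.95, 1.50 and 2.52 against 7.88, 6.54 and 7.06 CPM in iMeLC. Its log2 fold change was 1.90 (SE 0.16, adjusted p = 6.95e-05), and its exons overlap those of SLC26A10 on the opposite strand. EHBP1L1, which acts in endosomal transport, rose by 1.21 (SE 0.12, adjusted p = 0.000181), the scavenger receptor gene SCARF2 by 1.23 (SE 0.13, adjusted p = 0.000282) and HPGD, which breaks down prostaglandins, by 1.22 (SE 0.13, adjusted p = 0.000307) on the log2 scale. None of these genes overlapped between the genotypes at either stage.

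Several of the largest rises without overlap were at low levels. OLIG2, a transcription factor of oligodendrocyte and motor neuron precursors, read 0.275, 0.253 and 0.0917 CPM in CTRL hESC and 1.81, 1.02 and 1.28 CPM in CDKO hESC. In iMeLC it read 0, 0.0464 and 0.0782 CPM in the controls and 1.49, 1.95 and 1.61 CPM in CDKO, and the log2 fold change was 4.10 (SE 0.57, adjusted p = 0.00199). HMX1, a homeobox gene of ear and face development, rose by 3.11 (SE 0.36, adjusted p = 0.000567), from 0.440, 0.657 and 0.642 to 3.25, 3.75 and 3.54 CPM in hESC and from 0.0468, 0.162 and 0.137 to 0.713, 1.43 and 2.21 CPM in iMeLC. Further rises were those of RTN4RL1, a Nogo receptor relative (2.75), AGTR2, the angiotensin type 2 receptor (2.70), PHOX2A, a factor of autonomic neurons (2.30), and NLRP10, of the NOD-like receptor family (2.27). These 4 kept their calls in all 12 omissions, and PHOX2A has exons opposite those of INPPL1, itself a called gene. DUOXA1 (2.70), a maturation factor for a dual oxidase, lost its call without CDKO1102 iMeLC and OLR1 (2.85), a receptor for oxidised lipoprotein, without CDKO1312 iMeLC. The GABA transporter SLC6A11 (3.05) lost its call in 8 of 12 omissions, all but those of CTRL hESC 2 and the 3 CTRL iMeLC libraries. TBX1 (2.55), a T-box factor of the pharynx, lost it in 9, all but those of CTRL hESC 2, CTRL1106 iMeLC and CTRL1109 iMeLC.

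**Figure D3:**
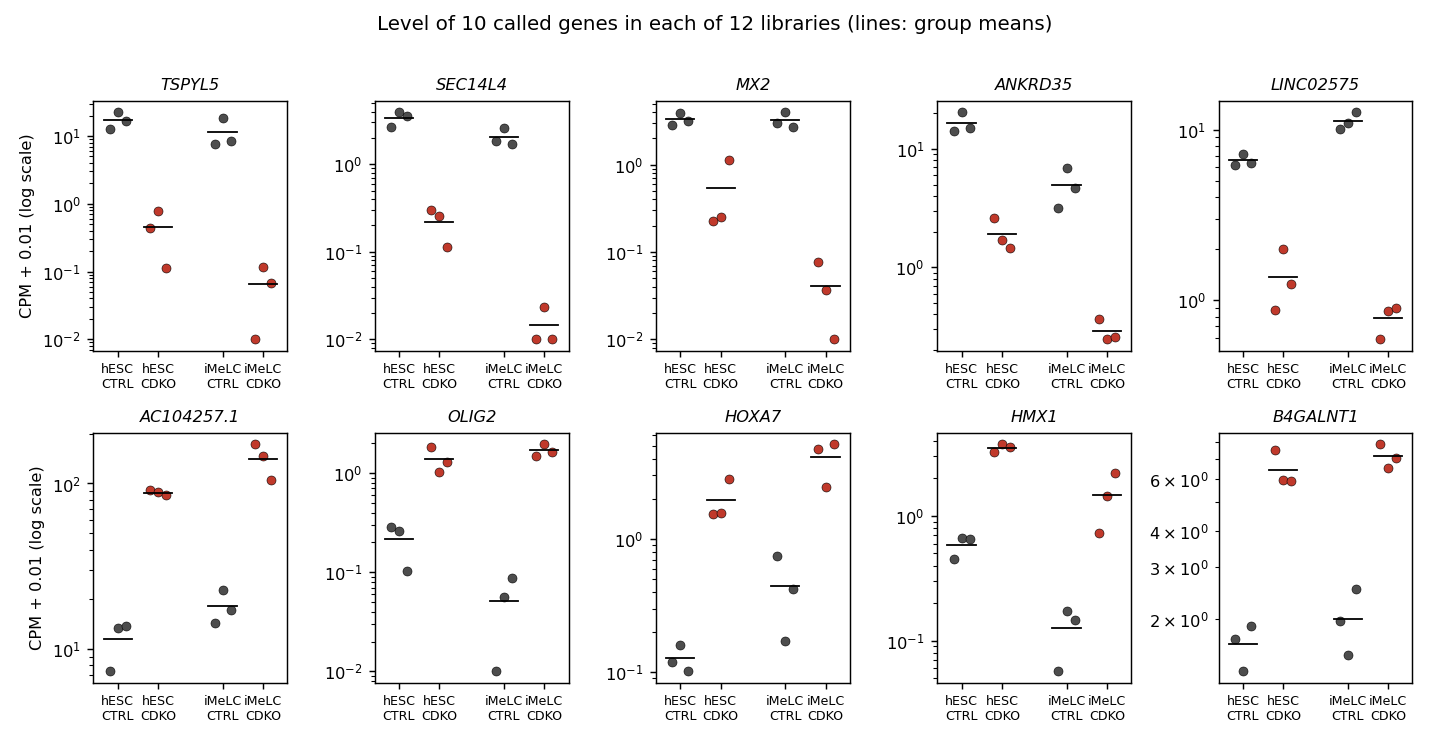
Level of 10 called genes in each of the 12 libraries (y axis: CPM plus 0.01 on a log scale; x axis: stage and genotype; grey points CTRL, red points CDKO; black lines are group means, n = 3). In each panel the CTRL and CDKO points of a stage do not overlap; AC104257.1, for example, is at 105 CPM or more in CDKO iMeLC and at 22.8 CPM or less in CTRL iMeLC.

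The stretch before the start of called genes was read from RefSeq promoters (GRCh38.p14, 250 bases before the first start listed), because the CG pairs there can carry the methyl mark that TET1 acts on. The sequences shown are 2 falls and 2 rises taken, in order of p, from the genes named here for the size of their change or their p that have an entry, with at least 100 bases outside any annotated exon, printed 5′ to 3′ on the strand of the gene, with CG pairs in capitals.
SEC14L4, lower, chr22:30505712-30505945, minus strand: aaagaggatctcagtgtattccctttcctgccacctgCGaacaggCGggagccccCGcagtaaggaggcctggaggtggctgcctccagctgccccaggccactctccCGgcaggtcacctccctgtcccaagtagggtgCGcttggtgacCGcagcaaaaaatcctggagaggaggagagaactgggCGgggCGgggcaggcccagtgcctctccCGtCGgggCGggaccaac
CYTL1, lower, chr4:5019473-5019708, minus strand: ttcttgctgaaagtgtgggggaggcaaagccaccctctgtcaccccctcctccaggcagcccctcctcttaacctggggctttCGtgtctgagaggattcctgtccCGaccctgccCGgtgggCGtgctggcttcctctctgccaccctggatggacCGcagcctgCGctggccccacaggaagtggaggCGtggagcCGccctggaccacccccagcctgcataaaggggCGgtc
PCDHGC4, higher, chr5:141484780-141484996, plus strand: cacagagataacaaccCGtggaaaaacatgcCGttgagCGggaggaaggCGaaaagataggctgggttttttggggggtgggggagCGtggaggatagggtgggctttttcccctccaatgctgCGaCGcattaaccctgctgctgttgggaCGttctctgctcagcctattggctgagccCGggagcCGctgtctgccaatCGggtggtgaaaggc
EHBP1L1, higher, chr11:65575803-65576037, plus strand: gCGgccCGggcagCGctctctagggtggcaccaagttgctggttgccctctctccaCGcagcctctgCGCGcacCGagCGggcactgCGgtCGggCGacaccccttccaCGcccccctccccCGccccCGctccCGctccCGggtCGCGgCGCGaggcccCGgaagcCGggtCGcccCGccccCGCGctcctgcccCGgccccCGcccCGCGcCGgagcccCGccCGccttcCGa
The printed stretches of SEC14L4, CYTL1 and PCDHGC4 held 11, 9 and 11 CG pairs and that of EHBP1L1 held 34. Over the 250 bases the ratio of CG pairs seen to those that base composition gives was 0.404 for SEC14L4, 0.397 for CYTL1, 0.642 for PCDHGC4 and 0.919 for EHBP1L1.

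That ratio was then taken over all genes with a RefSeq promoter, with 0.6 as the usual mark of a CG-rich promoter. It was reached by 73.8% of 12994 genes tested, by 76.9% of 321 genes called higher and by 58.6% of 355 genes called lower. The share went with the size of the change. Among falls beyond 2 on the log2 scale it was 42.6% (54 genes) and among falls under 1 it was 69.8% (212 genes); among rises beyond 2 it was 41.7% (24 genes) and among rises under 1 it was 85.7% (231 genes). These shares describe the called genes and were not tested. Level also differed by direction: the median level was 6.77 CPM for genes called lower, 22.3 CPM for genes called higher and 9.55 CPM for all. Level by size of change was not computed. By gene type, 94.9% of annotated genes called higher and 85.6% of those called lower were protein-coding, against 78.8% of all tested. Long non-coding RNAs made up 5.15% and 14.4% against 21.0%.

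Some called genes lay beside another gene called in the same direction. Runs of called genes within 100 kb of each other numbered 75 and took in 167 of the 968 called genes with a position; the number that gene density alone gives was not computed, and some runs hold genes that overlap. On chromosome 21, LINC02575 (-3.11, SE 0.30, adjusted p = 0.000181), AP001065.2 (-3.26), TSPEAR-AS1 (-3.26) and TSPEAR-AS2 (-2.61), all non-coding, fell side by side between 44485577 and 44525952. LINC02575 read 6.21, 7.18 and 6.38 against 0.867, 1.99 and 1.23 CPM in hESC and 10.1, 10.9 and 12.7 against 0.579, 0.856 and 0.883 CPM in iMeLC, with no overlap. On chromosome 12, C1RL (-2.21), a complement-like protease gene, and C1RL-AS1 (-2.55) fell together with C1S (-0.64), another complement protease gene, and ENO2 (-0.82), a neuronal enolase gene. Also on chromosome 12, B4GALNT1 rose with its neighbours SLC26A10 (1.39), ARHGEF25 (0.97) and PIP4K2C (0.31). Of these chromosome 12 genes, C1S, ENO2, SLC26A10 and PIP4K2C were not among the 298 genes called in all 12 omissions. C1RL shares exon positions with C1RL-AS1, B4GALNT1 with SLC26A10, and TSPEAR-AS1 and TSPEAR-AS2 with TSPEAR, in each case on opposite strands, and since the sources used here do not give the strand setting of the counting, reads of such pairs cannot be told apart. Chromosome 19 had the highest share of called genes, 7.71% of 1414, with 23 higher and 86 lower, and chromosome 10 the lowest, 3.48% of 748.

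Clustered protocadherins are cell-surface recognition genes whose variable first exons each have their own promoter and are joined to shared last exons. Of 53 tested, 3 were called higher and 3 lower, with a median log2 fold change of -0.18. PCDHGC4 read 3.63, 3.08 and 2.29 against 8.45, 8.56 and 12.3 CPM in hESC and 3.56, 3.50 and 3.63 against 10.2, 10.2 and 10.1 CPM in iMeLC. It rose by 1.61 (SE 0.14, adjusted p = 7.48e-05) without overlap. Beside it PCDHGC5 (0.93, lost in 5 omissions) and PCDHGB7 (0.37) rose, while PCDHGA11 (-1.29, adjusted p = 0.00415) of the same cluster, PCDHA11 (-1.90, adjusted p = 0.015) and PCDHB4 (-0.87) fell. The shared exons make the split of reads among members of a cluster uncertain. With 1 library left out the list had 1 to 6 members higher and 2 to 4 lower. PCDHGB7 and PCDHB4 were not among the 298 genes called in all 12 omissions.

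The gene lists below were drawn up with earlier results of these data known, some genes stand in more than 1 list, and their counts are to be read against 2.23% higher, 2.62% lower and a median of -0.01 over all genes tested. Imprinted genes, which are transcribed from 1 parental copy under the control of DNA methylation, went both ways: of 32 tested, 3 were called higher and 4 lower, with a median of 0.07. NNAT, a small membrane protein gene expressed from the paternal copy, read 17.1, 19 and 16.3 against 7.73, 4.72 and 3.28 CPM in hESC and 16.5, 17.6 and 13.5 against 0.646, 0.948 and 0.333 CPM in iMeLC. It fell by 3.13 (SE 0.49, adjusted p = 0.00418). NAP1L5, of the nucleosome assembly protein family, fell from 4.89, 3.64 and 5.18 to 0.289, 1.17 and 1.02 CPM in hESC, and in iMeLC its 547 CTRL counts stood against 3 CDKO counts (log2 fold change -3.82, adjusted p = 0.00484, which again depends in part on the prior count). NNAT and NAP1L5 did not overlap between genotypes at either stage. GRB10, an adaptor that dampens insulin and growth factor signalling, rose by 0.45 (SE 0.07, adjusted p = 0.00592), from 108, 96.4 and 80.5 to 144, 136 and 137 CPM in hESC and from 119, 112 and 105 to 146, 135 and 145 CPM in iMeLC. ZNF597 (0.87) and the Notch ligand relative DLK1 (0.82) were called higher and PEG10 (-0.32) and L3MBTL1 (-0.70) lower. With 1 library left out, 1 to 4 members were called higher and 2 to 6 lower. NNAT shares exon positions with BLCAP on the opposite strand. ZNF597 lost its call in 7 of 12 omissions and DLK1 in 10, and NNAT, NAP1L5 and GRB10 in 0. PEG10 and L3MBTL1 were not among the 298 genes called in all 12 omissions.

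Genes of germ cell genome defence and meiosis protect the germ line from transposons and carry out chromosome pairing. Of 39, 25 passed the filter on low counts, which a gene can pass through its level in 1 group. Of these 25, 5 were called lower and 1 higher, with a median of -0.55. The median was -0.46 over 38 with no such filter and -0.16 over 12 with a stricter one (at least 1 CPM in 6 libraries). PIWIL2, a PIWI protein that binds small RNAs against transposons, read 1.76, 7.73 and 7.94 against 1.52, 2.43 and 1.08 CPM in hESC, where the genotypes overlapped, and 5.99, 7.36 and 6.97 against 0.490, 0.408 and 0.289 CPM in iMeLC, where they did not. Its log2 fold change was -2.95 (SE 0.48, adjusted p = 0.00562). The tudor-domain genes TDRD5 (-3.22, adjusted p = 0.0154) and TDRD1 (-3.22, adjusted p = 0.0193), whose proteins scaffold the same pathway, had 9 and 3 counts in CDKO iMeLC against 233 and 206 in CTRL iMeLC. The meiotic cohesin gene STAG3 (-1.20) and the recombination gene MEIOB (-2.85) also fell, and RNF212 (1.10), a crossover factor, rose. TDRD1 lost its call without CDKO1105 iMeLC, and STAG3 without CTRL hESC 3 or any 1 of the CDKO iMeLC libraries. MEIOB and RNF212 were not among the 298 genes called in all 12 omissions. With 1 library left out, 2 to 6 members were called lower and 0 to 2 higher. Without both CTRL hESC 2 and CTRL1106 iMeLC, 2 were called lower and 1 higher (median -0.18). Without both CDKO hESC 1 and CDKO1102 iMeLC, 0 were called (median -0.40). Both pairs were chosen after seeing the data.

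Genes of cytosolic nucleic acid sensing and the interferon response were split too: of 30 tested, 4 were called lower and 1 higher (median -0.19). MX2, an interferon-induced GTPase, read 2.86, 3.94 and 3.17 against 0.217, 0.243 and 1.13 CPM in hESC and 3, 4 and 2.71 against 0.0668, 0.0263 and 0 CPM in iMeLC (log2 fold change -4.26, SE 0.68, adjusted p = 0.00541). CGAS, the sensor of DNA in the cytosol, read 7.86, 7.18 and 4.68 against 2.02, 3.26 and 0.359 CPM in hESC and 11.7, 11.2 and 8.31 against 0.0445, 0.290 and 0.145 CPM in iMeLC (-3.71, SE 0.74, adjusted p = 0.016). Neither gene overlapped between genotypes, and CGAS lost its call without CDKO1105 iMeLC. CGAS shares exon positions with DDX43 on the opposite strand. OAS3 (-2.55, adjusted p = 0.0105), which makes the messenger that activates RNase L, and MX1 (-1.04, adjusted p = 0.0443) were lower as well, while IFIT3 (1.52, adjusted p = 0.0203), another interferon-induced gene, was higher. IFIT3 lost its call without CTRL hESC 3 or CDKO1102 iMeLC, and MX1 was not among the 298 genes called in all 12 omissions. With 1 library left out, 2 to 6 members were called lower and 0 to 2 higher. Of 8 metallothionein genes, which bind zinc and copper, MT1H (-4.11, adjusted p = 0.0057) and MT1G (-3.22, adjusted p = 0.0109), neighbours on chromosome 16, fell, and the median of the 8 was 0.13. Metallothionein genes are close copies of each other, so the split of reads among them is uncertain.

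The epithelial list of 23 held 3 members called lower and 1 higher (median 0.16). PKP3, a plakophilin of the desmosome, was the only averaged call whose difference also differed between the stages (interaction adjusted p = 0.0381). It read 10.4, 13.4 and 9.91 against 4.62, 3.89 and 4.82 CPM in hESC and 18.4, 24.3 and 18.3 against 2.32, 2.57 and 2.26 CPM in iMeLC. Its averaged log2 fold change, -2.26 (SE 0.28, adjusted p = 0.0011), thus stood for -1.34 in hESC and -3.09 in iMeLC. The related PKP1 (-2.92, adjusted p = 0.0212) and the tight junction gene CLDN4 (-1.19, adjusted p = 0.022) fell, and the adhesion gene EPCAM rose by 0.65 (SE 0.12, adjusted p = 0.0123). CLDN4 lost its call without CDKO1105 iMeLC. The list had 2 to 4 members lower and 1 to 5 higher with 1 library left out.

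HOX genes encode the homeobox factors that pattern the body axis and are nearly silent in pluripotent cells. Of 39, 26 passed the filter on low counts, and 5 of these were called higher and none lower, with a median log2 fold change of 1.50. A gene can pass that filter through its level in 1 group, so members that were low everywhere are left out of the median; with no such filter it was 1.19 over 39. HOXA7 read 0.110, 0.152 and 0.0917 CPM in CTRL hESC and 1.52, 1.56 and 2.82 CPM in CDKO hESC, and 0.737, 0.162 and 0.411 CPM in CTRL iMeLC and 4.74, 2.44 and 5.14 CPM in CDKO iMeLC. The genotypes did not overlap, and the log2 fold change was 3.46 (SE 0.38, adjusted p = 0.000478), on 7 counts in all in CTRL hESC and with HOXA-AS3 on the opposite strand. HOXC13 (2.50), HOXD10 (1.79), HOXB6 (1.73) and HOXB3 (1.22) were called at adjusted p from 0.0372 to 0.0474, and their libraries held few counts (4 in CTRL hESC for HOXB6). HOXB6, HOXD10 and HOXC13 lost their calls in 8 or 9 of 12 omissions, each CDKO iMeLC library among them. The count of 5 became 17 without CTRL1101 iMeLC and 1 without CTRL1106 iMeLC, CTRL1109 iMeLC, CDKO hESC 2 or any 1 of the CDKO iMeLC libraries, HOXA7 being called in all.

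Definitive endoderm genes had the highest median of the lists described here, 1.73 over 16 tested, with 4 called higher and none lower. CXCR4, a chemokine receptor found on endoderm and migrating germ cells, read 2.31, 1.31 and 1.65 against 1.88, 1.75 and 15.7 CPM in hESC and 5.93, 2.81 and 11.8 against 39.9, 24.1 and 56.2 CPM in iMeLC. Its log2 fold change was 2.29 (SE 0.52, adjusted p = 0.0265). In hESC, CDKO 3 alone was high; in iMeLC all CDKO libraries lay above all CTRL libraries. The signalling gene SHH (2.43, adjusted p = 0.0235) and the nuclear receptor gene HNF4A (2.35, adjusted p = 0.0493) showed a similar order, with HNF4A at 0.506, 0.973 and 5.94 CPM in CDKO hESC 1 to 3. The summed level of the 16 genes was 135, 84.2 and 87.0 CPM in CTRL hESC, 101, 117 and 587 CPM in CDKO hESC, 276, 99.3 and 545 CPM in CTRL iMeLC and 1160, 783 and 1704 CPM in CDKO iMeLC. CDKO hESC 3 and CTRL1106 iMeLC thus stood apart from their groups, in the direction of more and of less, and what their part in the result is was not tested. None of the 16 was called without CDKO hESC 3, without CDKO1102 iMeLC or without CDKO1312 iMeLC, against 8 without CTRL1109 iMeLC; in those first fits the median was 1.22, 1.77 and 1.64. CXCR4 lost its call in 4 of 12 omissions, SHH in 3 and HNF4A in 10. Outside the list, the hormone gene NPPB (2.75, adjusted p = 0.0202) and the forkhead gene FOXQ1 (2.66, adjusted p = 0.0487) followed the same order, with 15.1 and 19.8 CPM in CDKO hESC 3 against 2.38 and 1.81 CPM in CDKO hESC 1. FOXQ1 lost its call in 10 of 12 omissions, all but those of CTRL1106 iMeLC and CTRL1109 iMeLC.

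Calls on the signalling routes that lead into mesendoderm were all upward. The share called was 17.6% for NODAL and activin genes and 15% for FGF and ERK feedback genes, against 2.23% higher over all genes tested. It was 5.26% for BMP genes and 0% for WNT genes. Among 17 genes of the NODAL and activin route, 3 were called higher (median 0.34). The ligand NODAL rose by 1.02 (SE 0.22, adjusted p = 0.023), from 24.3, 34.2 and 17.5 to 46.0, 60.0 and 84.1 CPM in hESC and from 344, 143 and 269 to 419, 451 and 384 CPM in iMeLC. The feedback regulator SKIL (0.32, adjusted p = 0.0259) rose with it. NODAL lost its call without CDKO1102 or CDKO1105 iMeLC, and in both of those fits no gene of the list was called. SKIL lost its call in 6 omissions. Among 20 genes of FGF and ERK feedback, 3 were called higher (median 0.38): FOS, an immediate early factor (0.78, adjusted p = 0.0166), SPRY2 (0.45, adjusted p = 0.0372) and SPRED2 (0.32, adjusted p = 0.0395), both inhibitors of the pathway. The number of called members ranged from 1 to 6 with 1 library left out; FOS kept its call throughout, while SPRY2 and SPRED2 each lost theirs in 9 omissions. BMP2 (1.58, adjusted p = 0.0465), which lost its call in 8 omissions, was the only call among 19 BMP genes, and NODAL the only one among 20 primitive streak genes, whose median was 0.83. The summed level of the streak genes was 769 CPM in CDKO hESC 3 against 120 to 263 CPM in the other hESC libraries, and 523 CPM in CTRL1106 iMeLC against 1472 to 2708 CPM in the other iMeLC libraries.

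Of 17 mesenchymal genes tested, 3 were called higher and none lower (median 0.63): the matrix protein gene SPARC rose by 0.59 (SE 0.11, adjusted p = 0.00959), from 92.1, 103 and 81.8 to 121, 110 and 138 CPM in hESC and from 295, 202 and 223 to 423, 365 and 420 CPM in iMeLC. The matrix protease gene MMP14 (0.60, adjusted p = 0.0307) and the fibronectin receptor gene ITGA5 (0.58, adjusted p = 0.0407) also rose, but lost their calls in 5 and 7 omissions, and the number called was 9 without CTRL1101 iMeLC and 1 without CTRL hESC 3, CDKO hESC 3 or any 1 of the CDKO iMeLC libraries. Among 19 fibroblast and feeder markers, 3 were called higher (median 0.36): SPARC, the collagen gene COL5A2 (0.81, lost in 6 omissions) and the receptor gene PDGFRA (1.04, lost in 9). The summed level of those markers was 1090, 1212 and 876 CPM in CTRL hESC, 1221, 1150 and 1171 CPM in CDKO hESC, 2574, 1409 and 1811 CPM in CTRL iMeLC and 2838, 2541 and 2650 CPM in CDKO iMeLC. On this sum, the genotypes overlapped in both stages. The mean log2 level over the 19 markers did not overlap in iMeLC, at 5.27, 4.10 and 4.61 in CTRL and 5.84, 5.64 and 5.46 in CDKO, and overlapped in hESC, at 3.50, 3.06 and 2.66 against 3.31, 3.36 and 3.24. The part of such cells in the mesenchymal rises was not tested.

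Primordial germ cell specification genes had 3 calls of 19, all higher (median 0.38): EPCAM, KLF4 (0.68, adjusted p = 0.0235) and CXCR4. The naive pluripotency list had 3 of 14, all higher (median 0.41), namely KLF4, KLF5 (0.72, adjusted p = 0.0115) and NLRP2. Between genotypes, KLF4 and KLF5 overlapped in hESC and NLRP2 at both stages. KLF4 and KLF5 are Krüppel-like factors of stem cells. KLF4 lost its call without CDKO hESC 1, CDKO hESC 2, CDKO1102 iMeLC or CDKO1105 iMeLC. Neural and neural crest genes had 2 of 27 lower, ZIC5 (-0.42, adjusted p = 0.0177) and NGFR (-0.75, adjusted p = 0.0433), and DLK1 higher (median -0.16); ZIC5 lost its call without CDKO1102 iMeLC and NGFR in 7 omissions. A further 10 lists, 176 genes in all, had no member called in the main edgeR fit: TET enzymes and base excision partners, DNA methylation writers, the polycomb repressive complex that methylates histone H3, core pluripotency genes, WNT genes, amnion and trophectoderm genes, cholesterol synthesis, p53 targets, the integrated stress response and mitotic genes. In those 10 lists, 50 genes had an unadjusted p under 0.05, DESeq2 called 15 and limma with library weights called 12. With 1 library left out, edgeR called at least 1 member of each of the 10 lists in some omission. Core pluripotency genes had up to 2 higher and 1 lower, and TET enzymes and their partners up to 1 higher and 2 lower. With RLE scaling, 1 core pluripotency gene was called higher. Without CTRL1101 iMeLC, edgeR called 8 of the 17 integrated stress response genes higher and 1 lower, and 3 of the 18 mitotic genes lower. Among the remaining lists, PSMB9 (-1.57), a subunit of the immunoproteasome, was the only call of 18 HLA and antigen processing genes, ENO2 the only one of 24 hypoxia and glycolysis genes, and MAPRE1 (0.28) and XKR7 (-0.93) were those of 18 genes of the 20q region that stem cell cultures often gain. MTRNR2L13 (2.70) and MTRNR2L6 (1.55) were called higher among 9 MTRNR2L genes, which are nuclear copies of a mitochondrial ribosomal RNA gene, so their reads may be shared with it. In hESC, MTRNR2L13 held 0 counts in CTRL and 1 in CDKO, so its call rests on iMeLC. MTRNR2L6 overlapped between genotypes in hESC (log2 fold change 0.65) and not in iMeLC (2.04). The median of the 9 was -0.69 in hESC and 1.26 in iMeLC. With 1 library left out in turn, PSMB9 lost its call in 9 of the 12 omissions, ENO2 in 8, MAPRE1 in 5, XKR7 in 10 and MTRNR2L6 in 1, and without CTRL1101 iMeLC 8 hypoxia and glycolysis genes were called lower.

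**Figure D4:**
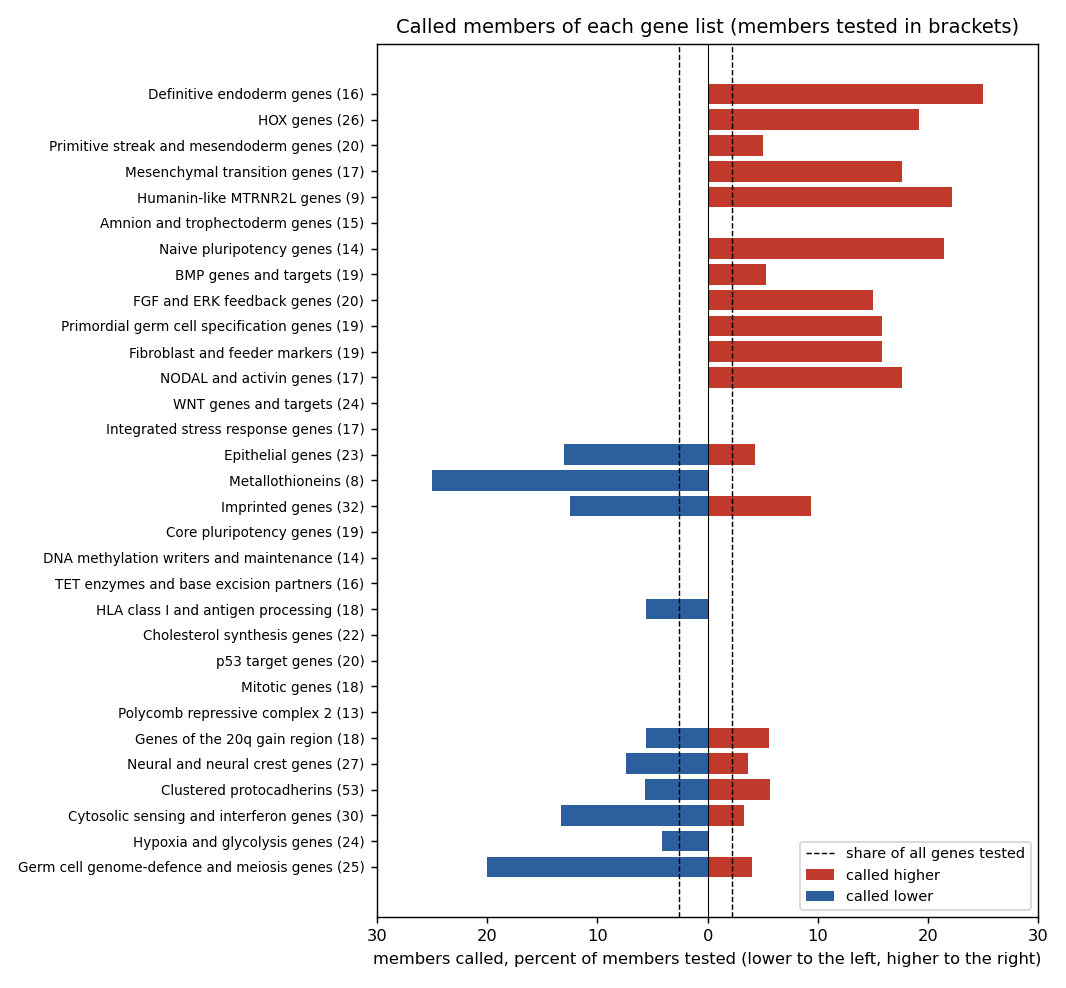
Share of the tested members of each list that were called lower (blue, to the left) or higher (red, to the right) in CDKO, in percent, ordered by the list's median log2 fold change; numbers of members tested are in brackets and dashed lines mark the shares over all genes tested (2.62% lower, 2.23% higher). Lists are small, so 1 gene moves a bar by several percent; definitive endoderm genes had 4 of 16 higher and germ cell genome-defence genes 5 of 25 lower.

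A set of called genes, picked out after their values were seen, did not separate the genotypes, or hardly did. ZNF729, a zinc finger gene of the KRAB type, read 308, 0.0505 and 321 CPM in CTRL hESC 1 to 3 and 0.0722, 0.0973 and 0 CPM in CDKO hESC. In iMeLC it read 154, 0.0232 and 125 CPM in CTRL1101, CTRL1106 and CTRL1109 and 0.223, 0.132 and 0.246 CPM in CDKO. One control library at each stage was thus as low as the knockouts. ZNF98, ZNF99 and ZNF728, its neighbours on chromosome 19 between 22286408 and 23003176, had the same order, as did HEPH, a copper oxidase gene on chromosome X. ZNF560, elsewhere on chromosome 19, was low in the same control libraries (1.52 CPM in CTRL hESC 2 against 0.632 CPM at most in CDKO hESC). These 6 were called lower with log2 fold changes from -9.52 to -4.69 and adjusted p from 0.00935 to 0.0174, and each kept its call in all 12 omissions. Over all alternatives, ZNF729, ZNF98, ZNF99, ZNF728 and HEPH each lost their calls in 3 of 21 and ZNF560 in 4 of 23. The fit of the iMeLC libraries alone was among these for all 6. NLRP2, a NOD-like receptor gene expressed in oocytes, showed the opposite case. It read 2.09, 3.54 and 1.51 against 2.60, 184 and 159 CPM in hESC and 1.07, 2.99 and 1.51 against 1.83, 141 and 156 CPM in iMeLC. CDKO hESC 1 and CDKO1102 iMeLC stayed at the control level, yet NLRP2 was called higher at 5.69 (SE 0.98, adjusted p = 0.00818), also in all 12 omissions. Over all 23 alternatives NLRP2 lost its call in 2, the fit of the iMeLC libraries alone among them. Leaving out both CDKO hESC 1 and CDKO1102 iMeLC took ZNF729 to an adjusted p of 0.0783 and NLRP2 to 6.45e-07, and leaving out both CTRL hESC 2 and CTRL1106 iMeLC took them to 3.06e-10 and 0.019. Whether the hESC and the iMeLC library that depart come from 1 line is not given by the columns. Omitting 1 library at a time therefore does not test a difference that 1 line carries at both stages. KRAB zinc finger genes of 1 cluster are close copies, so the split of reads among them is uncertain.

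**Figure D5:**
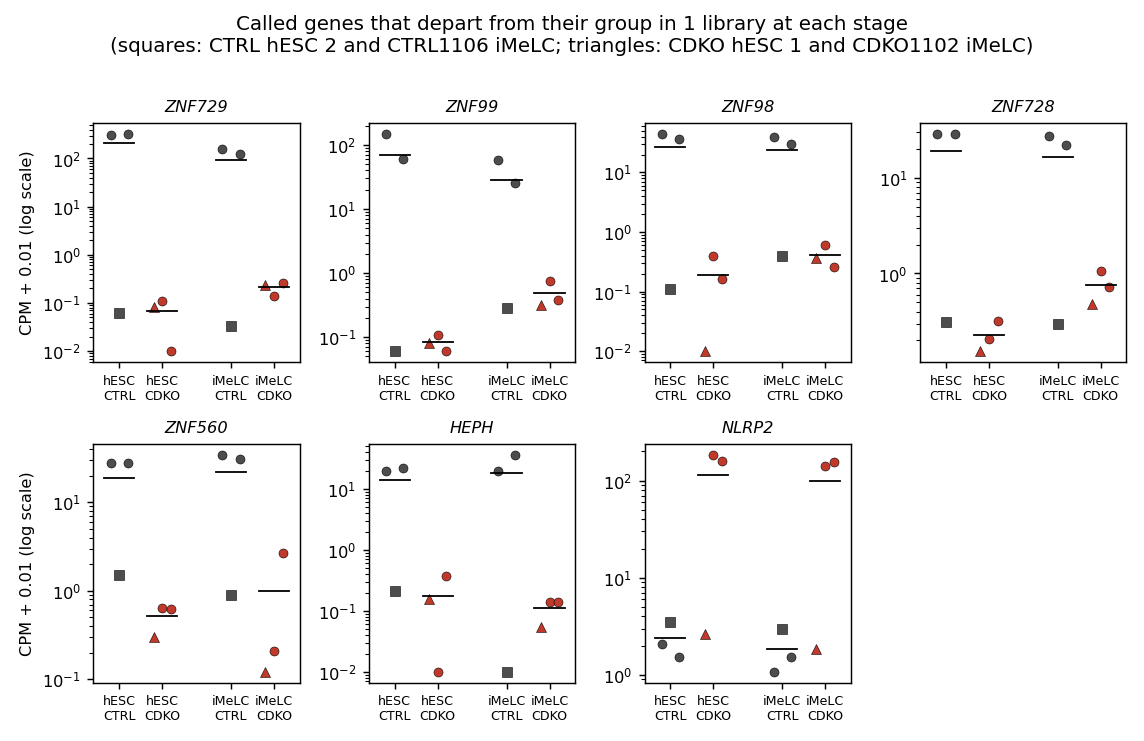
Level of 7 called genes in the 12 libraries (y axis: CPM plus 0.01 on a log scale; x axis: stage and genotype; grey CTRL, red CDKO; black lines are group means, n = 3; squares are CTRL hESC 2 and CTRL1106 iMeLC, triangles CDKO hESC 1 and CDKO1102 iMeLC). In 6 panels the squares lie at or near the CDKO level, such as 0.0505 CPM for ZNF729 in CTRL hESC 2, and in the NLRP2 panel the triangles lie at the CTRL level.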

How the data were processed

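The authors deposited raw read counts by gene symbol in 1 table for hESC and 1 for iMeLC; both held the same 36762 symbols and were joined on them. The submitters' processing notes name FastQC, cutadapt, edgeR and GRCh38; the aligner, the counter, the annotation and the strand setting were not given in the sources read. Of the symbols, 34217 (93.1%) matched exactly 1 gene of GENCODE 29, used for positions, types and overlaps; 17438 had a RefSeq promoter.

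Counts were fitted with edgeR 4.0.16 (R 4.3.3): filterByExpr over the 4 groups, TMM scaling, glmQLFit with stage and genotype terms, glmQLFTest of the genotype, Benjamini-Hochberg adjustment over all genes tested. Standard errors derive from the F statistic. The interaction was tested in a fit with 4 group means. Alternatives used DESeq2 1.42.0 and limma 3.58.1, other scalings and filters, and omissions. The fits were tested on simulated data. Members and lists were chosen with earlier results of these data known. Genes were named by rule: TET1 to TET3, the 14 largest rises and falls among called genes with at least 1 CPM in a group and no overlap at either stage, the 6 smallest adjusted p in each direction, up to 4 members of each list, and called genes with an interaction; further called members of a list are named where its count is given. A few called genes that this rule names are not reported here.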

Additional observations from a re-analysis of the deposited data

Results flagged for a closer look

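PKP3, a desmosome gene, was flagged because its genotype difference differed between the stages: the interaction had an adjusted p of 0.0381 by edgeR's quasi-likelihood test, with a log2 fold change of -1.34 in hESC and -3.09 in iMeLC. CDKO lay below CTRL in 3 of 3 libraries at each stage. Stage coincides with the table and with depth, which cannot be told apart here.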

How the results depend on the processing

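The count of 982 called genes (452 higher, 530 lower) was 226 (103 and 123) in hESC alone, 69 (16 and 53) in iMeLC alone and 2068 (937 and 1131) with DESeq2; limma with library weights called 1296 (704 and 592, or 45.7% lower), the one alternative here in which rises outnumbered falls. With 1 library left out it ranged from 363 to 2182 genes, 142 to 1060 higher and 221 to 1122 lower. Without both CDKO hESC 1 and CDKO1102 iMeLC, an omission chosen after seeing the data, it was 125 (41 and 84), and without both CTRL hESC 2 and CTRL1106 iMeLC 709. Scaling by RLE gave 948, a stricter filter 943, no filter 1254, 4 group means 1222 and a robust fit 977. The share of calls that were lower was 54.0% and moved by over 10 points in iMeLC alone (76.8%), on omission of CTRL hESC 2 (64.2%), CDKO hESC 1 (65.8%), CDKO hESC 2 (64.5%) or the added CDKO pair (67.2%). The interaction called 4 genes with edgeR and 210 with DESeq2. TET1 passed the exact test (p = 0.025), which treats libraries of 1 line as independent, and not edgeR's (adjusted p = 0.114); limma with weights called it. For the named genes, 457 gene and setting pairs lost the call, 1661 kept their side of the threshold, 4 gained it and 0 changed sign. The causes were not tested. No paired analysis was possible because the hESC columns name no line, and CTRL and CDKO share no line number. Depth limits what hESC libraries show for genes with a few counts.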

Other observations

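Among the 298 genes called in every omission of 1 library, the most abundant changed by small amounts; they were picked out for their level after the values were seen. RESF1, which takes part in silencing retroelements, rose by 0.44 (SE 0.06, adjusted p = 0.00176), from 507 ± 17.5 to 681 ± 56.3 CPM (SD, n = 3) in hESC and from 342 ± 23.8 to 467 ± 27.7 CPM in iMeLC. INPPL1, a phosphoinositide phosphatase gene, rose by 0.54 (SE 0.07, adjusted p = 0.000929), from 122 ± 8.99 to 177 ± 6.28 CPM in hESC and from 120 ± 13.2 to 175 ± 12.7 CPM in iMeLC. SERPINB9, an inhibitor of granzyme B, rose by 0.64 (adjusted p = 0.0121) and ARF1, a GTPase of Golgi transport, by 0.34 (adjusted p = 0.0132). The centrosome genes CEP250 (-0.46, adjusted p = 0.00935) and CROCC (-0.30, adjusted p = 0.0177) and the replication licensing gene CDT1 (-0.30, adjusted p = 0.0154) fell. Of the 15 most abundant genes of that kind, these 7 are described; VASH2, ADGRL1, NOP53 and RBPMS were also lower and EPCAM, SPARC, CEMIP2 and ZNF644 higher.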
